A study of Mus musculus with 6 samples.

Results

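Growth factors, their receptors and binding proteins, and the Wnt and Notch pathways were described in primary mouse Sertoli cells that had lost UXT. The genes were chosen by symbol: the families Fgf, Wnt, Fzd, Igf, Pdgf, Vegf, Tgfb, Bmp, Gdf, Acvr, Inh, Notch, Jag, Hey and Hes, without Bmp2, Tgfbi and the Igf2bp genes. This gave 38 of the 3257 genes analysed, with no Acvr or Hes gene among them. The knockout group was 3 libraries of Sertoli cells of C57BL/6 UXT KO mice that had received Cre recombinase by virus. The wild-type group was 3 libraries of C57BL/6 Sertoli cells infected with an empty plasmid. Cells of both groups had been enriched by differential plating for a day, and the age of the animals was not given in the sources used here. Only knockout cells received Cre, so the loss of UXT and the Cre virus cannot be told apart. Separate animals or cultures are not named for the libraries of a group, so p-values cover only how far these libraries differ, which may be technical.

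UXT is a prefoldin-like protein known to bind the androgen receptor. Sertoli cells line the seminiferous tubule and support germ cells, in part through secreted growth factors. FGF, IGF, PDGF and VEGF ligands act on receptor tyrosine kinases, while TGF-beta, BMP, GDF and activin ligands act on receptor serine kinases that signal through SMAD proteins. Wnt ligands bind Frizzled receptors. Notch receptors are cut when they meet a Jagged or Delta ligand on a neighbouring cell, and the released part switches on target genes of the Hes and Hey families. Inhibin, a hormone of Sertoli cells that restrains the release of follicle-stimulating hormone, is a pair of an alpha subunit and a beta subunit, whereas 2 beta subunits form activin.

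Every gene in the authors' deposited table had been selected on these same libraries, with the smallest fold at 1.5 and the largest adjusted p at 0.0499. Genes outside it were not analysed here. Uxt was not among the 3257 genes analysed, so no fall of Uxt RNA within these limits is listed there. Whether Uxt changed by less or was left out for another reason is not known, so the knockout itself was not checked. The values per library were log2 expression values, and they were compressed. The difference between group means was, as a median over the 38 genes, 0.62 of the log2 change that the authors' deposited table gives, and 0.14 for Bmp8b. The compression was strongest at low expression, the median ratio over the table being 0.24 for the genes of lowest expression (expression group 1 of 4) and 0.65 for those of highest. Differences of low genes, their order and a change of their sign are therefore on a narrower scale than those of high genes. Folds below are therefore those of the authors' deposited table, and values per library show the spread. Whether the values were corrected for gene length is not stated, so levels are not compared between genes, and sequencing depth was unknown. Over the table, the median log2 value was 8.82 to 8.91 in knockout libraries and 9.15 to 9.18 in wild-type libraries.

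Sequences 250 bases before to 50 bases after the first listed transcription start were found for 28 of the 38 genes in RefSeq (GRCm38.p6). Those of the Notch receptors and of Jag2 are shown because these genes act in one pathway and differed in direction. Capitals mark the motifs, which were searched on both strands. TGGGAA is the core bound by RBPJ, the DNA-binding partner of Notch. The GC box was searched as GGGCGG and the TATA box as TATAAA. The AP-1 motif was searched as TGANTCA and the E-box as CACGTG. The cyclic AMP response element was searched as TGACGTCA, and the last motif was the CCAAT box. The windows lie at chr3:98013288-98013587 on the plus strand (Notch2), chr17:32166841-32167140 on the minus strand (Notch3), chr17:34564045-34564344 on the plus strand (Notch4) and chr12:112929446-112929745 on the minus strand (Jag2).
Notch2: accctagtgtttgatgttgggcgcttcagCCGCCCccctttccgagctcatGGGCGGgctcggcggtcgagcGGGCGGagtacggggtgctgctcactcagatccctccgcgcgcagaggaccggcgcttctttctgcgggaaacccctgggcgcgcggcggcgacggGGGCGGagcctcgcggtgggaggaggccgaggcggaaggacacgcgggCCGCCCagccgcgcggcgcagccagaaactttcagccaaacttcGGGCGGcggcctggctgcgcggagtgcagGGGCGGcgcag
Notch3: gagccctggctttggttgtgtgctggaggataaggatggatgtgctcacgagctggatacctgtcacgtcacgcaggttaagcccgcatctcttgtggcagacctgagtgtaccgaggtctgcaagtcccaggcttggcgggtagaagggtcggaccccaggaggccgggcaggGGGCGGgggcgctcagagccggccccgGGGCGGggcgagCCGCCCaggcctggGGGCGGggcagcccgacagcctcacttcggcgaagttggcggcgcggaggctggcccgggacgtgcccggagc
Notch4: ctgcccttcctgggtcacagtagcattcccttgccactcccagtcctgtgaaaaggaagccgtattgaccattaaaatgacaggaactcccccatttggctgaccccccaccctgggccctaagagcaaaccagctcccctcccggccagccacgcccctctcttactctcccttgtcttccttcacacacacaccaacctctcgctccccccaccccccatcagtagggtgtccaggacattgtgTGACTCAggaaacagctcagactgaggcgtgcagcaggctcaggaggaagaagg
Jag2: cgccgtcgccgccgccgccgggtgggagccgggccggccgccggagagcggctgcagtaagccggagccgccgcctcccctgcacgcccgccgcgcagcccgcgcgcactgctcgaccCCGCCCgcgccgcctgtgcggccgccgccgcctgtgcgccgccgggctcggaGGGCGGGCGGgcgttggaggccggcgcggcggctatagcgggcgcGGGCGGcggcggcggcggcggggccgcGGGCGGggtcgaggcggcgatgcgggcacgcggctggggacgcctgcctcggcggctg

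GC boxes were found 7 times in the window of Notch2, 4 times in that of Notch3 and 5 times, with 1 overlapping pair, in that of Jag2. The Jag2 window lies inside the gene, whose first base is further upstream at 112929812, and motifs near that outer end were not searched. Notch4 had no GC box and 1 AP-1 motif, and 58.3% of its bases were G or C, against 73.0% in Notch2, 70.0% in Notch3 and 86.0% in Jag2. Of the 28 genes, 57.1% had a GC box, close to the 57.7% of 2468 genes of the table and above the 35.9% of all 27025 genes listed. TGGGAA was in 17.9% of the 28 windows, 23.8% of those of the table and 25.5% of those listed, and in none of the 4 windows printed. A match is a description and not a binding site.

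In knockout cells 29 of the 38 genes were lower and 9 were higher. Among the lower genes were Pdgfb, Gdf15, Hey1, Bmp4, Jag2, Notch4 and Bmp8b, each by at least 4-fold in the authors' deposited table. The higher genes were Fgf2, Fgf7, Inhba, Notch2, Vegfc, Wnt2, Fzd3, Fzd4 and Fzd9, and none of them reached 4-fold in the authors' deposited table. Lower genes made up 76.3% of the 38, against 67.5% of the whole table, and higher genes 23.7%, against 32.1% (limma, adjusted p under 0.05). Either call was made for 99.6% of the table, so a call by itself says little about a gene. The authors' deposited table gave a median log2 change of -0.89 over the 38 genes and -0.88 over all 3257. A fall of at least 4-fold was found in 18.4% of the 38 genes and 13.5% of the table, and a rise of that size in 0 of the 38 genes and 0.768% of the table.

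**Figure D1:**
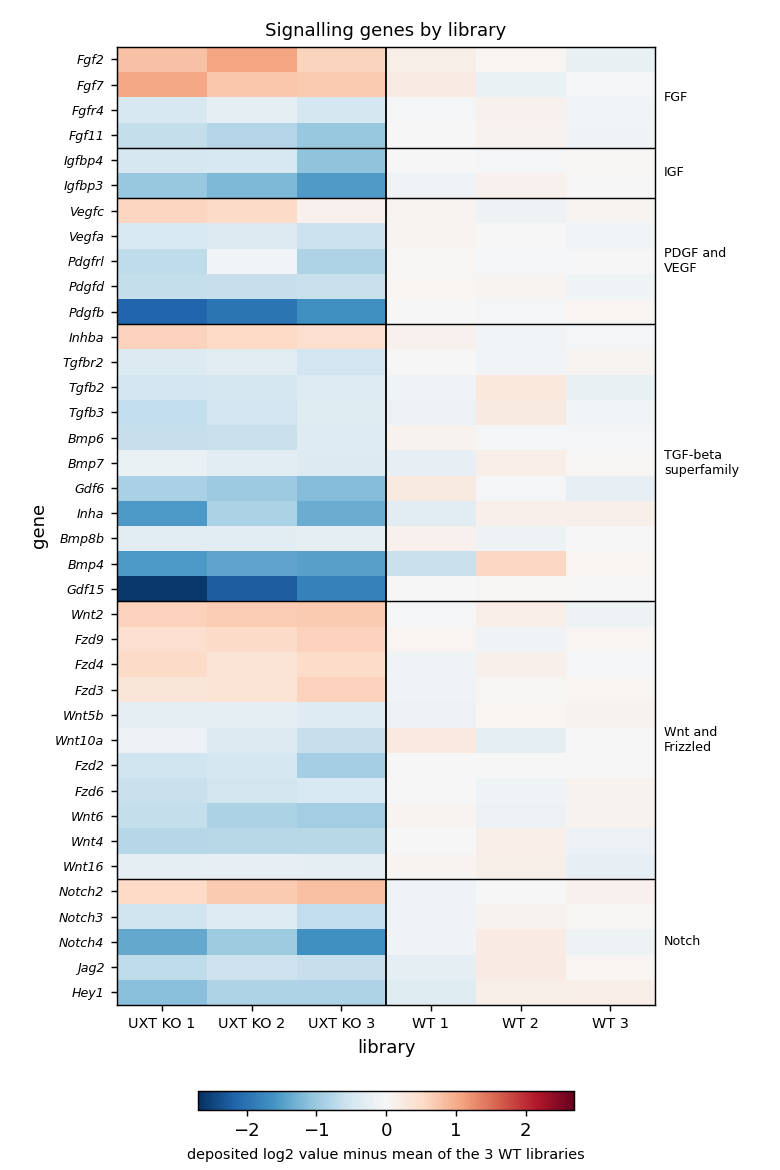
Deposited log2 value of each of the 38 genes (rows, grouped by family) in each library (columns, knockout left and wild type right), minus the mean of the 3 wild-type libraries. Blue is lower and red higher than wild type. Gdf15 is the deepest blue in each of the 3 knockout libraries, and Notch2, Fgf2, Fgf7, Wnt2 and Inhba are red in all 3.

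The groups did not overlap in 35 of the 38 genes (92.1%, against 97.5% of the table). Of these, 9 were higher (23.7%, against 31.7% of the table) and 26 lower (68.4%, against 65.8%). The exceptions were Bmp7, Wnt10a and Wnt16. By role, 18 of 23 ligands and ligand subunits were lower and 5 higher, and 6 of 10 receptors were lower and 4 higher. All 5 other genes (Hey1, Igfbp3, Igfbp4, Fgf11 and Pdgfrl) were lower. These counts by role stand beside 67.5% lower and 32.1% higher over the table, and a difference between roles was not tested. The median fold of the lower genes was 2.03 and that of the higher genes 2.06 in the authors' deposited table, while over the whole table lower genes had a median of 2.33 and higher genes 1.75.

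**Figure D2:**
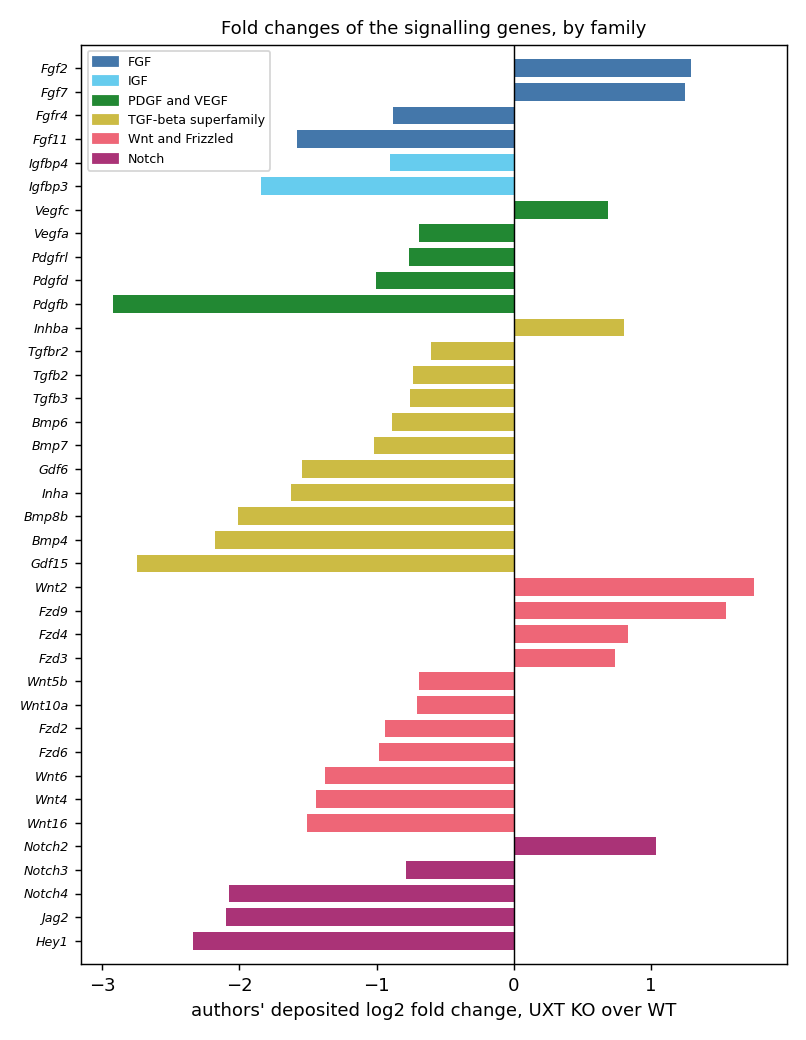
Log2 change (knockout over wild type) of the 38 genes as the authors' deposited table gives it, coloured by family. The bars range from -2.92 for Pdgfb to 1.76 for Wnt2, and each family except IGF holds genes on both sides of 0.

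Many calls of lower genes depended on how the libraries were scaled. On the log2 scale, the median difference of all genes was 0.33 higher after quantile normalization and 0.30 higher after centring on the median. Both scalings moved the differences of all 38 genes upward, so a higher call could hardly be lost, and that the 9 higher genes stayed called says little about them. The lower calls were 17 after quantile normalization and 14 after centring, and 13 were made under all 3 scalings (Bmp4, Fgf11, Fzd2, Gdf15, Gdf6, Hey1, Igfbp3, Inha, Notch4, Pdgfb, Pdgfd, Wnt4 and Wnt6). Over all genes the split was 1044 higher and 2200 lower as deposited, 1049 and 1143 after quantile normalization, and 1116 and 1024 after centring. The sign itself turned for Bmp7 and Wnt5b under both scalings, for Fgfr4 and Wnt10a under quantile normalization, and for Bmp8b and Wnt16 under centring. The table holds only selected genes, and 67.8% of those called were lower as deposited. Quantile normalization assumes equal distributions in all libraries and centring assumes equal medians, so both lift lower genes even where a fall is real. A lost lower call or a turned sign, here or below, therefore cannot tell which scaling is right.

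**Figure D3:**
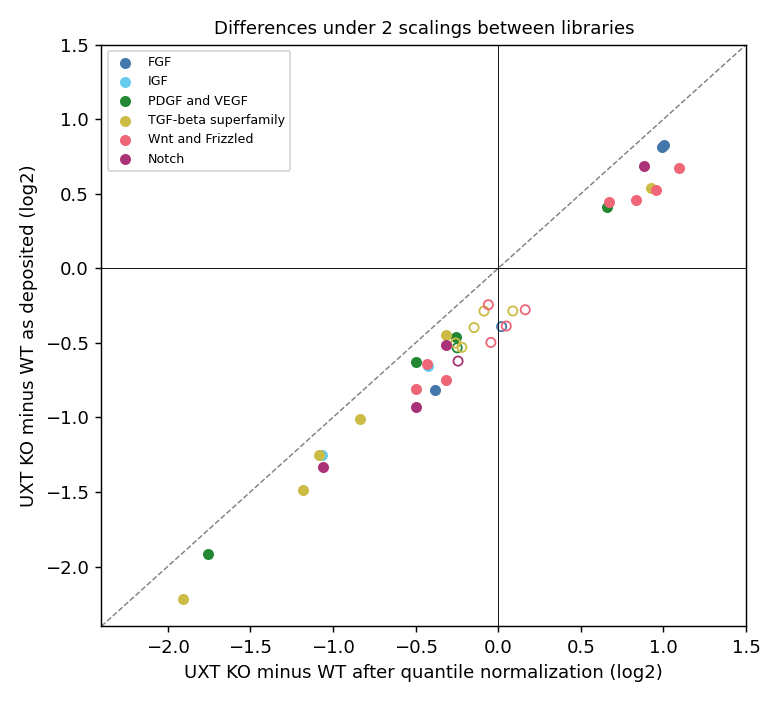
Difference between knockout and wild-type means of each of the 38 genes, as deposited (vertical axis, log2) and after quantile normalization (horizontal axis, log2). Filled points passed limma at an adjusted p under 0.05 after quantile normalization (9 higher and 17 lower) and open points did not. The points lie below the dashed line of equal values.

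Markers of other cell types moved with the groups. Of 30 endothelial markers, 26 were in the table and all 26 were lower, with a mean log2 level of 6.91 to 6.98 in knockout libraries and 8.18 to 8.31 in wild-type libraries. Of 30 macrophage markers, 25 were in the table and all 25 were lower (7.84 to 8.0 in knockout and 8.99 to 9.27 in wild-type libraries). Of 20 markers of myoid cells and fibroblasts, 14 were in the table and all were lower (13.20 to 13.62 in knockout and 14.06 to 14.27 in wild-type libraries). Of 14 Leydig cell markers, 5 were in the table and all were higher (11.52 to 12.00 in knockout and 10.76 to 10.97 in wild-type libraries). Of 20 germ cell markers, 3 were present, with 1 higher and 2 lower (7.23 to 7.37 in knockout and 7.71 to 7.94 in wild-type libraries). Of 30 Sertoli markers, 18 besides Inha were present, with 1 higher and 17 lower (8.43 to 8.73 in knockout and 9.39 to 9.65 in wild-type libraries). No gene analysed, marker or not, had a value of 0 in any library, so values above 0 do not show that a cell type was present. The authors' deposited table gave a fall of 4.47-fold for Wt1 and of 1.81-fold for Sox9, which are both genes of Sertoli cells. The part of these marker changes in the results below was not tested, and in bulk RNA fewer cells of a type and less RNA per cell cannot be told apart.

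Of the Notch genes, 1 of 5 was higher in the knockout and 4 were lower. Notch2, a receptor found in many tissues, had log2 values of 13.08, 13.24 and 13.36 in knockout libraries, against 12.43, 12.54 and 12.65 in wild-type libraries. The groups did not overlap, and Notch2 was 2.06-fold higher in the authors' deposited table (limma difference 0.68 ± 0.09 SE, adjusted p = 2.12e-04). Notch4, a receptor known mainly from endothelial cells, had values of 8.69, 9.11 and 8.40 in knockout libraries, against 9.98, 10.30 and 9.93 in wild-type libraries. All 3 knockout values were lower, by 4.21-fold in the authors' deposited table (limma difference -1.33 ± 0.17 SE, adjusted p = 1.51e-04). Notch3, a receptor of mural and smooth muscle cells, averaged 11.12 ± 0.16 in knockout and 11.63 ± 0.11 in wild-type cells (SD, n = 3 each). It was 1.72-fold lower in the authors' deposited table, and this call was not made after centring.

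Jag2, a Notch ligand, had log2 values of 5.61, 5.73 and 5.68 in knockout libraries, against 6.03, 6.51 and 6.34 in wild-type libraries. It was 4.28-fold lower in the authors' deposited table without overlap of the groups (limma adjusted p = 0.00102), and the call was not made after quantile normalization (difference -0.24). Hey1, a repressor that Notch signalling switches on, had 5.83, 6.12 and 6.13 in knockout libraries, against 6.63, 7.11 and 7.12 in wild-type libraries. Hey1 was 5.05-fold lower in the authors' deposited table (limma difference -0.93 ± 0.15 SE, adjusted p = 4.17e-04). Jag2 and Hey1 are both known to be active in endothelium, whose markers were lower in the same libraries. Markers of Sertoli, macrophage and myoid cells were also mostly lower, and those of Leydig cells higher. A link of Jag2 or Hey1 with any of these marker changes was not tested.

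Of the whole table, 67.5% was called lower and 32.1% higher, a share to set beside each pathway list. Of 42 other Notch pathway genes, 10 were present, with 1 higher and 9 lower, and with 1 higher and 7 lower after quantile normalization. Of these, Dll4 and Egfl7 are also on the endothelial list. Dll4, a Notch ligand of endothelium, had the largest fall of these, which the authors' deposited table gives as 124-fold. The glycosyltransferase genes Mfng and Lfng, whose products modify Notch receptors, were 11.1-fold and 4.65-fold lower in the authors' deposited table. Nrarp, a Notch target that feeds back on the pathway, was 6.48-fold lower in the authors' deposited table, with values of 5.57, 5.72 and 5.78 in knockout libraries, against 6.46, 6.65 and 6.58 in wild-type libraries. Dtx2, a ubiquitin ligase gene, was higher by 1.60-fold in the authors' deposited table. Lfng and Dtx2 were named for their link to the receptors, after their values were seen.

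Among Wnt ligands, Wnt2 was higher and Wnt4, Wnt6, Wnt10a, Wnt16 and Wnt5b were lower. Wnt2, a ligand of the canonical pathway, had log2 values of 7.0, 7.06 and 7.09 in knockout libraries, against 6.32, 6.55 and 6.25 in wild-type libraries. Its 3.38-fold rise was the largest of the 38 genes in the authors' deposited table (limma difference 0.67 ± 0.10 SE, adjusted p = 3.16e-04). Wnt4, which acts against testis fate in the developing gonad, had 7.93, 7.96 and 7.96 in knockout libraries, against 8.68, 8.88 and 8.53 in wild-type libraries. The knockout values were almost equal, and Wnt4 was 2.72-fold lower in the authors' deposited table (limma adjusted p = 2.48e-04).

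Wnt6 and Wnt10a are neighbours on chromosome 1, with 6696 bases between them in GRCm38.p6. Wnt6 had log2 values of 9.01, 8.80 and 8.70 in knockout libraries, against 9.72, 9.48 and 9.74 in wild-type libraries. It was 2.59-fold lower in the authors' deposited table (limma adjusted p = 2.19e-04). Wnt10a had 8.42, 8.18 and 7.95 in knockout libraries, against 8.82, 8.32 and 8.57 in wild-type libraries. These groups overlapped, and Wnt10a, 1.63-fold lower in the authors' deposited table, lost its limma call without any one of knockout replicates 2 and 3 and wild-type replicates 1 and 3 (adjusted p of 0.0693 to 0.140).

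Wnt16 had log2 values of 4.08, 4.10 and 4.08 in knockout libraries, against 4.40, 4.49 and 4.10 in wild-type libraries. The third wild-type value lay inside the knockout range, and the 2.84-fold fall in the authors' deposited table stood beside a difference of -0.24 ± 0.09 (SE, limma adjusted p = 0.0247). The Wnt16 call was not made without any one of the knockout replicates or without wild-type replicate 1 or 2, at adjusted p of 0.0517 to 0.0833. Wnt5b, a ligand of the non-canonical pathway, averaged 6.95 ± 0.06 in knockout and 7.23 ± 0.14 in wild-type cells (SD, n = 3 each). It was 1.62-fold lower in the authors' deposited table, and its limma call (adjusted p = 0.0220) was not made without knockout replicate 3 or wild-type replicate 2 or 3 (adjusted p of 0.0609 to 0.0747). The difference of Wnt5b was 0.16 after quantile normalization.

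Of the 5 Frizzled receptor genes, 3 were higher and 2 lower. Fzd9 had log2 values of 6.61, 6.69 and 6.79 in knockout libraries, against 6.23, 6.07 and 6.21 in wild-type libraries, and was 2.93-fold higher in the authors' deposited table. Fzd4, which also binds the non-Wnt ligand norrin, had 9.01, 8.87 and 8.99 in knockout libraries, against 8.39, 8.63 and 8.48 in wild-type libraries. Fzd3, known for axon guidance and tissue polarity, had 9.89, 9.92 and 10.18 in knockout libraries, against 9.46, 9.58 and 9.61 in wild-type libraries. None of the 3 overlapped between groups, and Fzd4 and Fzd3 were 1.78-fold and 1.67-fold higher in the authors' deposited table (limma adjusted p = 0.00181 and 0.00255). Fzd2 had 12.27, 12.31 and 11.89 in knockout libraries, against 12.80, 12.78 and 12.81 in wild-type libraries. Fzd2 was lower in every knockout library, most in replicate 3, and by 1.92-fold in the authors' deposited table. Fzd6 averaged 7.90 ± 0.10 in knockout and 8.39 ± 0.10 in wild-type cells (SD, n = 3 each). It was 1.97-fold lower in the authors' deposited table, a call that neither other scaling made.

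Of 58 other Wnt pathway genes, 9 were present, with 2 higher and 7 lower, and with 2 higher and 2 lower after quantile normalization. Of all calls in the table, 67.8% were lower as deposited and 52.1% after quantile normalization. Daam2, a formin that links Wnt signals to the cytoskeleton, was 4.82-fold lower in the authors' deposited table. Rnf43 and Znrf3 encode related ubiquitin ligases that remove Frizzled receptors from the cell surface. Rnf43 was 3.04-fold lower and Znrf3 1.80-fold higher in the authors' deposited table, Znrf3 being named as the partner of Rnf43. Ndp, which encodes norrin, was 2.30-fold lower in the authors' deposited table while its receptor gene Fzd4 was higher. Porcn, which encodes the enzyme that adds a lipid to Wnt ligands, averaged 8.63 ± 0.29 in knockout and 9.02 ± 0.11 in wild-type cells (SD, n = 3 each; limma adjusted p = 0.0232), with overlapping groups, and was chosen for its link to the ligands.

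**Figure D4:**
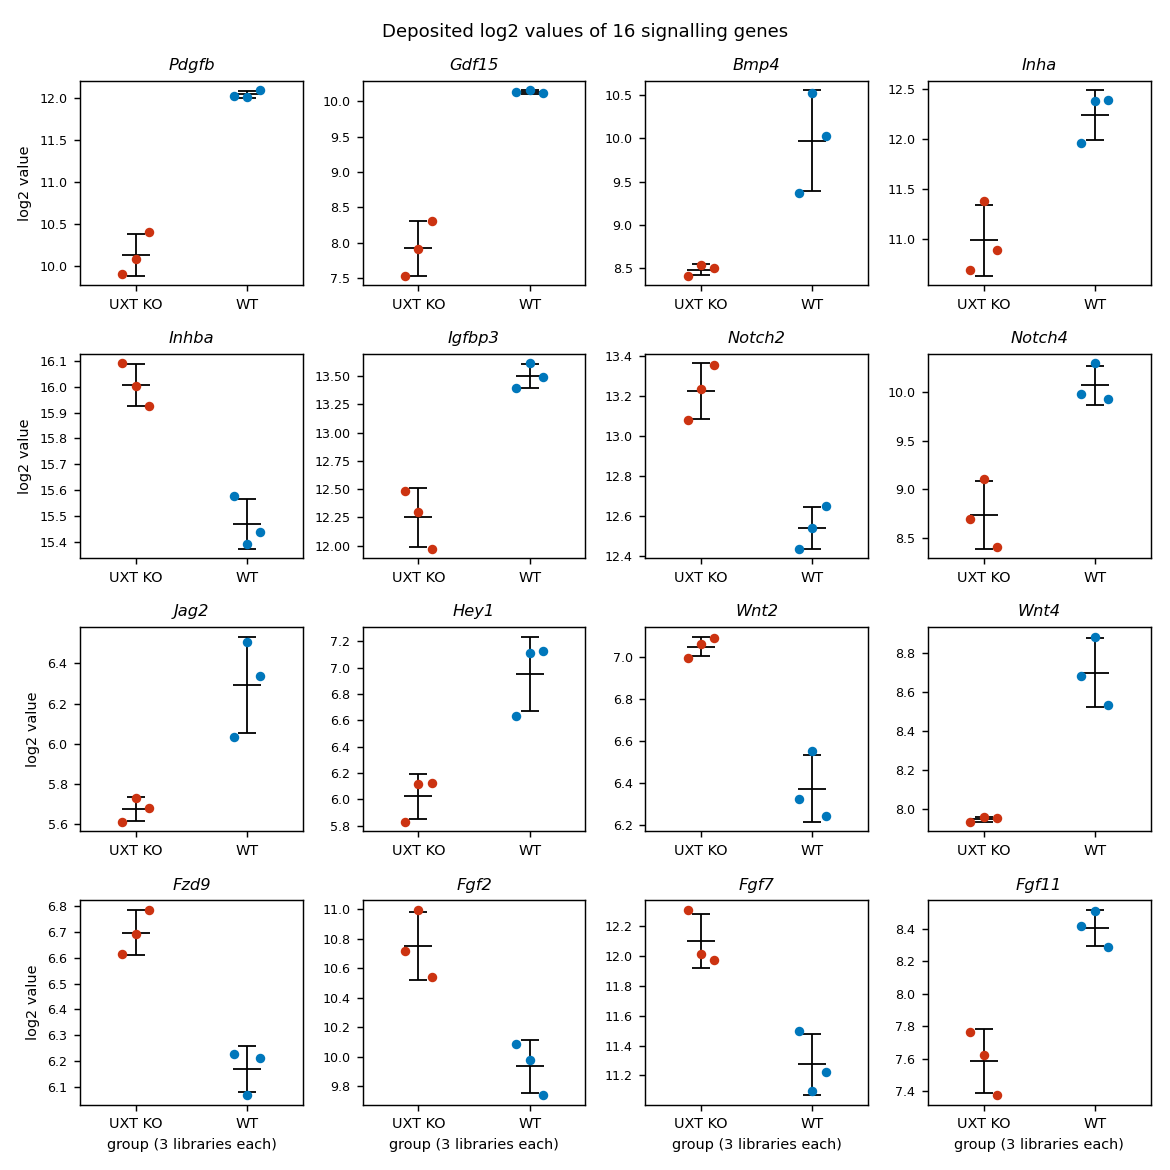
Deposited log2 values of 16 of the genes by group, with knockout left and wild type right. Points are the 3 libraries of a group, and bars are the mean and SD. The vertical axes differ between panels and do not start at 0. The groups do not overlap in any of the 16 panels, as in 92.1% of the 38 genes and 97.5% of the table. The panels are a selection that leaves out Bmp7, Wnt10a and Wnt16, whose groups overlap. The wild-type libraries of Bmp4 spread from 9.37 to 10.52.

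In the TGF-beta superfamily 10 of 11 genes were lower and Inhba was higher, beside 67.5% lower and 32.1% higher over the table. Of the lower genes, only Bmp4, Gdf15, Gdf6 and Inha were called under all 3 scalings. The inhibin subunit genes among the 38, Inha and Inhba, moved in opposite directions. Inhbb, the gene of another beta subunit, was not among the 38. Inha, the alpha subunit that makes a dimer an inhibin, had log2 values of 10.69, 11.38 and 10.90 in knockout libraries, against 11.96, 12.38 and 12.39 in wild-type libraries. It was 3.09-fold lower in the authors' deposited table (limma difference -1.25 ± 0.18 SE, adjusted p = 2.46e-04). Inhba, the beta A subunit of inhibin A and activin A, had 16.09, 16.00 and 15.92 in knockout libraries, against 15.58, 15.39 and 15.44 in wild-type libraries. It was 1.75-fold higher in the authors' deposited table (limma difference 0.54 ± 0.10 SE, adjusted p = 7.26e-04). Inhibin and activin proteins were not measured. Inha is also a Sertoli marker, and the other Sertoli markers were mostly lower in the same libraries, a link that was not tested.

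The windows around the first listed transcription start of both subunit genes are shown, with the same motifs in capitals. They lie at chr1:75507359-75507658 (Inha) and chr13:16011601-16011900 (Inhba), both on the plus strand. Both windows lie inside the gene, whose first base is further upstream, at 75507077 (Inha) and 16004256 (Inhba). Motifs near that outer end were not searched.
Inha: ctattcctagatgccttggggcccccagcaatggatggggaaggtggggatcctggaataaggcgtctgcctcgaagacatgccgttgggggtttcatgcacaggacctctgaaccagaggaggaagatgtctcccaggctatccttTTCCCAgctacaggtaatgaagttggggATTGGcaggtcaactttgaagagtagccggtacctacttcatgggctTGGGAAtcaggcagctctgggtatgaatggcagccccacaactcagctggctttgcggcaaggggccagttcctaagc
Inhba: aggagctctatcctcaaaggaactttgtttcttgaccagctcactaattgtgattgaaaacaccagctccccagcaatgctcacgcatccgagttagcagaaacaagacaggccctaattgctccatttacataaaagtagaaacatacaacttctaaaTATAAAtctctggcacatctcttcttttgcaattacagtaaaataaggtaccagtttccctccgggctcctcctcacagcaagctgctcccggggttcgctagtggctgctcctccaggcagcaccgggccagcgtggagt

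Inha had TGGGAA 2 times and 1 CCAAT motif and no TATAAA, and Inhba had 1 TATAAA, a motif found in 14.2% of all listed windows. Neither window had a GC box.

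Gdf15, a ligand induced by cell stress, had log2 values of 7.53, 7.91 and 8.31 in knockout libraries, against 10.13, 10.16 and 10.12 in wild-type libraries. The wild-type libraries were almost equal (SD 0.02) and the knockout libraries spread more (SD 0.39), without overlap. Gdf15 (chromosome 8, 70629393 to 70632470 in GRCm38.p6) was 6.72-fold lower in the authors' deposited table, with a limma difference of -2.22 ± 0.17 (SE, adjusted p = 1.06e-05). Gdf6, a ligand related to BMPs, averaged 11.09 ± 0.15 in knockout and 12.10 ± 0.23 in wild-type cells (SD, n = 3 each) and was 2.92-fold lower in the authors' deposited table.

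Bmp4 had log2 values of 8.41, 8.54 and 8.50 in knockout libraries, against 9.37, 10.52 and 10.02 in wild-type libraries. The groups did not overlap, although the wild-type libraries differed among themselves by an SD of 0.58, and Bmp4 was 4.53-fold lower in the authors' deposited table (limma adjusted p = 4.29e-04). Bmp8b, studied for its role in male germ cells, had 4.20, 4.23 and 4.25 in knockout libraries, against 4.63, 4.38 and 4.53 in wild-type libraries. Its 4.04-fold fall in the authors' deposited table stood beside a difference of -0.29, which was 0.01 after centring, and reads of its close copy Bmp8a may not be told apart from its own. Bmp6 averaged 9.09 ± 0.15 in knockout and 9.62 ± 0.08 in wild-type cells (SD, n = 3 each) and was 1.85-fold lower in the authors' deposited table.

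Bmp7 had log2 values of 5.69, 5.57 and 5.50 in knockout libraries, against 5.66, 6.05 and 5.91 in wild-type libraries. The first knockout value was above the first wild-type value, so the groups overlapped, and the 2.03-fold fall in the authors' deposited table had a limma adjusted p = 0.0265. That call was not made without knockout replicate 2 or 3 or wild-type replicate 2 or 3 (adjusted p of 0.0660 to 0.0905). Tgfb2 and Tgfb3, ligands of the TGF-beta receptors, were 1.66-fold and 1.69-fold lower in the authors' deposited table. Tgfb2 averaged 10.21 ± 0.08 in knockout and 10.66 ± 0.25 in wild-type cells, and Tgfb3 averaged 13.02 ± 0.17 in knockout and 13.52 ± 0.21 in wild-type cells (SD, n = 3 each). Tgfbr2, the type II receptor of these ligands, averaged 13.14 ± 0.10 in knockout and 13.54 ± 0.07 in wild-type cells (SD, n = 3 each). Its 1.52-fold fall was the smallest change of the 38 genes in the authors' deposited table. Neither other scaling called Tgfb3, Tgfbr2 or Bmp6, and centring did not call Tgfb2.

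Of 52 other genes of the TGF-beta and BMP pathways, 15 were present, with 4 higher and 11 lower, and with 4 higher and 5 lower after quantile normalization. Of the 15, Amh is also a Sertoli marker and Eng an endothelial marker. Grem1, an antagonist that binds BMP ligands, was 23.1-fold higher and the ligand gene Bmp2 6.95-fold lower in the authors' deposited table. Grem1 averaged 11.15 ± 0.12 in knockout and 8.05 ± 0.23 in wild-type cells (SD, n = 3 each). Amh, the anti-Müllerian hormone made by Sertoli cells, was 4.04-fold lower and its receptor gene Amhr2 3.34-fold lower in the authors' deposited table. Fstl3, which binds and blocks activin, was 3.71-fold lower in the authors' deposited table, with values of 12.52, 12.62 and 12.13 in knockout libraries, against 13.74, 13.75 and 13.62 in wild-type libraries. Id1, a target of BMP signalling, was 1.72-fold higher in the authors' deposited table. Amhr2, Fstl3 and Id1 were named as partners of ligands described here.

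**Figure D5:**
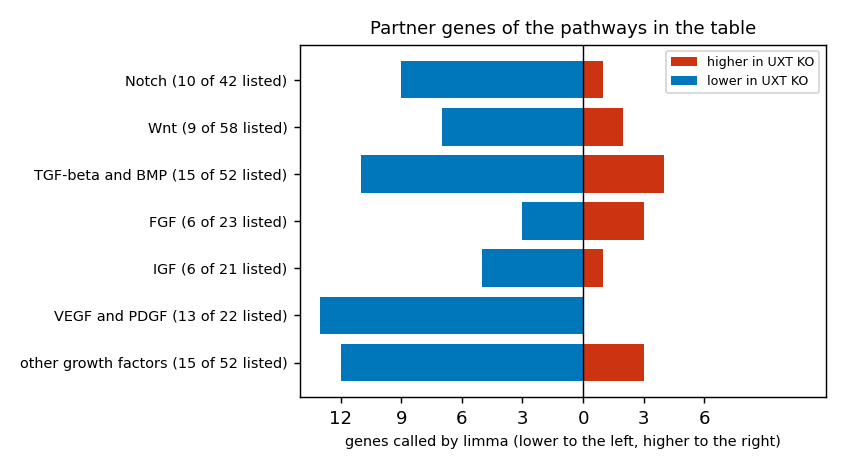
Number of genes of each pathway list, other than the 38, that limma called lower (blue, left) or higher (red, right) in the knockout at an adjusted p under 0.05. Labels give how many listed genes were in the table. No VEGF or PDGF pathway gene was higher, and the FGF list held 3 higher and 3 lower genes.

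The PDGF and VEGF genes were lower in 4 of 5 cases. Pdgfb, the ligand with which endothelium recruits pericytes, had log2 values of 9.91, 10.08 and 10.40 in knockout libraries, against 12.03, 12.02 and 12.09 in wild-type libraries. The gap between the groups was 1.62, and Pdgfb (chromosome 15, 79995865 to 80024614 in GRCm38.p6) had the largest fall of the 38 genes, 7.57-fold in the authors' deposited table (limma difference -1.92 ± 0.12 SE, adjusted p = 4.13e-06). Pdgfd, a ligand of the PDGF beta receptor, averaged 10.29 ± 0.02 in knockout and 10.92 ± 0.11 in wild-type cells (SD, n = 3 each) and was 2.01-fold lower in the authors' deposited table. Pdgfrl, a receptor-like protein without a kinase domain, had 8.95, 9.56 and 8.80 in knockout libraries, against 9.68, 9.61 and 9.62 in wild-type libraries. Knockout replicate 2 lay 0.05 below the lowest wild-type value, and without knockout replicate 3 the call was not made (limma adjusted p = 0.0508). The fall of Pdgfrl was 1.70-fold in the authors' deposited table, and neither other scaling called it.

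The VEGF ligands differed in direction. Vegfa, which drives the growth of blood vessels, had log2 values of 14.39, 14.41 and 14.22 in knockout libraries, against 14.88, 14.79 and 14.72 in wild-type libraries. It was 1.61-fold lower in the authors' deposited table (limma adjusted p = 0.00113), and not called after centring (difference -0.16). Vegfc, which drives the growth of lymphatic vessels, had 10.12, 10.05 and 9.64 in knockout libraries, against 9.60, 9.39 and 9.59 in wild-type libraries. Knockout replicate 3 was only 0.04 above the highest wild-type value, and the 1.61-fold rise in the authors' deposited table (limma adjusted p = 0.0139) was not called without knockout replicate 1 or wild-type replicate 2 (adjusted p = 0.0531 and 0.0565).

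Of 22 other VEGF and PDGF pathway genes, 13 were in the table and all 13 were lower, with 9 called lower after quantile normalization. The endothelial receptor gene Tie1 was 36.7-fold lower, Angpt2, a ligand of the related receptor Tek, 11.1-fold lower and Figf, which encodes VEGF-D, 5.17-fold lower in the authors' deposited table. Flt1, the gene of a VEGF-A receptor, was 4.70-fold lower, and Flt4, that of the VEGF-C receptor, 1.53-fold lower in the authors' deposited table. Of the 13 genes, 6 are also on a cell type list, namely Tie1, Tek, Flt1 and Flt4 on the endothelial, Csf1r on the macrophage and Kit on the germ cell list. Pgf, a ligand of Flt1, had log2 values of 10.17, 10.56 and 10.08 in knockout libraries, against 12.00, 11.99 and 11.31 in wild-type libraries. Hif1a, whose product switches on Vegfa when oxygen is low, was 1.66-fold lower in the authors' deposited table. Flt1, Flt4, Pgf and Hif1a were named as partners of the VEGF ligands.

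Of the FGF genes, the secreted ligands Fgf2 and Fgf7 were higher, and Fgf11 and the receptor gene Fgfr4 were lower. Fgf2, a mitogen for many cell types, had log2 values of 10.72, 11.00 and 10.54 in knockout libraries, against 10.09, 9.98 and 9.74 in wild-type libraries. It was 2.45-fold higher in the authors' deposited table (limma difference 0.82 ± 0.13 SE, adjusted p = 4.70e-04). Fgf7, the keratinocyte growth factor, had 12.31, 12.01 and 11.98 in knockout libraries, against 11.50, 11.10 and 11.23 in wild-type libraries. It was 2.37-fold higher in the authors' deposited table (limma difference 0.83 ± 0.12 SE, adjusted p = 3.30e-04). The exons of Fgf2 share 640 bases, 9.44% of their length, with Nudt6 on the opposite strand in GENCODE M21 (GRCm38), and whether counting used strand is not known here. Exons of Bmp4, Bmp6, Bmp8b, Fzd6, Notch3, Tgfb2 and Tgfb3 also overlap a gene on the opposite strand, by 2.14% to 8.74% of their length, and exons of Fgf2 and Notch2 overlap a gene on the same strand, by 3.76% and 5.02%. Counts of these genes are uncertain where reads were shared.

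Fgf11, which encodes an intracellular protein of the FGF fold that is not secreted, averaged 7.59 ± 0.20 in knockout and 8.41 ± 0.11 in wild-type cells (SD, n = 3 each). It was 3.0-fold lower in the authors' deposited table. Fgfr4 averaged 7.21 ± 0.11 in knockout and 7.60 ± 0.10 in wild-type cells (SD, n = 3 each). The 1.84-fold fall of Fgfr4 in the authors' deposited table had a limma adjusted p = 0.00487, and the difference was 0.02 after quantile normalization. Of 23 other FGF pathway genes, 6 were present, with 3 higher and 3 lower, and with 3 higher and 1 lower after quantile normalization. Dusp4, a phosphatase induced by this pathway, was 2.69-fold higher and the transcription factor gene Etv4 1.91-fold higher in the authors' deposited table, while Flrt1, which encodes a membrane protein that binds FGF receptors, was 2.50-fold lower in the same table. The feedback inhibitor genes Spry2 and Spry1, named as targets of FGF signalling, were 1.68-fold higher and 1.51-fold lower in the authors' deposited table.

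The IGF genes in the table were those of 2 binding proteins, which carry IGF ligands outside the cell, and both were lower. Igfbp3 had log2 values of 12.48, 12.29 and 11.97 in knockout libraries, against 13.40, 13.61 and 13.49 in wild-type libraries. It was 3.59-fold lower in the authors' deposited table (limma difference -1.25 ± 0.13 SE, adjusted p = 4.24e-05). Igfbp4 had 13.14, 13.16 and 12.49 in knockout libraries, against 13.57, 13.55 and 13.62 in wild-type libraries. Knockout replicate 3 was the lowest, and Igfbp4 was 1.87-fold lower in the authors' deposited table, a call that was not made after centring. Of 21 other IGF pathway genes, 6 were present, with 1 higher and 5 lower, and with 1 higher and 3 lower after quantile normalization. Stc1, which inhibits the proteases that cut IGF binding proteins, was 5.46-fold lower, Pappa2, one of those proteases, 3.27-fold lower and Htra1, a secreted protease, 3.0-fold lower in the authors' deposited table. Pik3r1, which was higher, encodes a subunit of phosphoinositide 3-kinase and was 1.51-fold higher in the authors' deposited table.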

How the data were processed

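Per the submitters' processing notes, the tools were FastQC, STAR and DESeq2 and the build was mm10. The library kit kept strand, per the labels' protocols. How reads were counted, with which annotation and whether by strand, is not stated in labels or headers. The authors deposited 1 table with a signed fold score, a log2 fold change, p-values and adjusted p-values of their own test, and a log2 value per library, made by an unstated transformation. Of 3261 rows, 4 with a repeated symbol were left out. The 38 genes and the pathway and marker lists were chosen with earlier results of these data known. All 3257 genes were fitted with limma 3.58.1 (R 4.3.3, mean-variance trend, no covariate), tested on simulated data, with Benjamini-Hochberg adjustment over the table, and called at an adjusted p under 0.05. Values per library were given for higher genes, for genes whose deposited fold reached 4 and, only to choose what to print, for the gene with the highest deposited value in each family. Remaining genes have means, or values where chosen later. Of each pathway list the 3 genes with the largest folds were named, plus partners. Alternatives were other scalings, no trend, dropping the genes of lowest expression, a replicate block, stricter thresholds and leaving out each library.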

Additional observations from a re-analysis of the deposited data

How the results depend on the processing

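Under quantile normalization the lower signalling genes called were 17 and the median difference was -0.25. After centring on the median they were 14 and -0.20. Against these stand 29 lower genes and -0.50 as deposited. Quantile normalization left 2 lower genes of the Wnt list, 5 of the TGF-beta and BMP list, 1 of the FGF list and 3 of the IGF list. It left 7 of the Notch list, 9 of the VEGF and PDGF list and 8 of the myoid and fibroblast markers. Differences turned positive for Bmp7 (0.0886), Fgfr4 (0.0210), Wnt10a (0.0490) and Wnt5b (0.16) after quantile normalization, and for Bmp7 (0.0097), Bmp8b (0.0093), Wnt16 (0.0515) and Wnt5b (0.0181) after centring. Quantile normalization assumes equal distributions in all libraries and centring assumes equal medians, and 67.8% of the called genes of this selected table were lower. Leaving out each library in turn gave 8 to 9 higher and 24 to 28 lower genes, and a median difference between -0.52 and -0.44. With an adjusted p of 0.01 there were 8 higher and 24 lower genes, and without Inha, which a marker list also holds (chosen after seeing the data), 9 and 28. Without the trend they were 9 and 28, Wnt16 being lost, and without the genes of lowest expression 7 and 24 of 31 genes tested. Deviations of libraries with the same number had Pearson's r across genes of 0.18, -0.07 and -0.00 for numbers 1, 2 and 3. For unlike numbers r ranged from -0.20 to 0.20. The numbers were not taken as pairs in the main fit, although 3 libraries per group cannot exclude pairs. The fit with the replicate block called 9 higher and 29 lower genes. Depth was unknown, so no counting error could be given.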

Other observations

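Of 52 further growth factor and hedgehog genes on a separate list, 15 were present, with 3 higher and 12 lower in the knockout. Dhh, the hedgehog ligand of Sertoli cells that acts on Leydig and myoid cells, is also on the Sertoli marker list. It had log2 values of 8.48, 9.03 and 9.17 in knockout libraries, against 10.63, 10.80 and 10.79 in wild-type libraries, and was 5.67-fold lower in the authors' deposited table. Nov, a matrix-associated protein of the CCN family, was 3.48-fold lower and Erbb4, a receptor for neuregulins, 3.46-fold lower in the authors' deposited table. Gdnf, the Sertoli cell factor that maintains spermatogonial stem cells, was 2.18-fold lower in the authors' deposited table, with values of 9.22, 9.45 and 9.36 in knockout libraries, against 9.74, 10.24 and 10.05 in wild-type libraries. The higher genes were Egfr, the epidermal growth factor receptor, Ereg, one of its ligands, and Gfra2, a receptor of the GDNF family. Egfr averaged 14.30 ± 0.02 in knockout and 13.80 ± 0.06 in wild-type cells (SD, n = 3 each) and was 1.68-fold higher in the authors' deposited table, while another ligand gene, Egf, was 2.49-fold lower in the same table. Gdnf, Egfr, Ereg, Egf and Gfra2 were named after their values were seen. Under quantile normalization the list held 3 higher and 8 lower genes.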
